A study of Arabidopsis thaliana with 10 samples.

Results

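Glucosinolates are the sulphur-rich defence compounds of the mustard family, and the 40 Arabidopsis thaliana genes described here are their MYB regulators, their synthesis enzymes and the enzymes that break them down. The genes were chosen by locus code for their known roles in the pathway. All 40 had a row of their own among the 33297 rows of the deposited expression table. They comprised 24 genes of the aliphatic branch, 10 of the indolic branch, 3 core enzymes shared by both branches and 3 breakdown genes. By role, 6 were regulators, 31 were synthesis enzymes and 3 were breakdown enzymes.

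The study asked how seedlings lacking members of a histone deacetylase complex differ from wild type. HDA9 is a histone deacetylase, HOS15 a WD-repeat protein and PWR (POWERDRESS) a SANT-domain protein, and the study's design text describes them as binding one another in plants. Messenger RNA was sequenced from whole 7-day-old seedlings of 5 genotypes, with 2 libraries named for each. The genotypes were hda9 (T-DNA line SALK_007123), hos15 (allele hos15-2, SALK_064435), pwr (SALK_071811C), the hda9-hos15 double mutant that combines SALK_007123 and SALK_064435, and Col (Columbia-0 wild type). All seedlings grew at 23 °C on agar under 16 h light and 8 h dark and were harvested 12 h after lights on. Each mutation is represented by 1 insertion line and is present throughout the plant, so no tissue can be singled out.

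The table holds 1 FPKM value per gene and genotype as the authors made it. FPKM is the number of fragments scaled to transcript length and to the mapped fragments of the library. The scaling is meant to make levels comparable between genes and between genotypes. Unequal column sums and a relation to transcript sequence, both given below, limit the comparison between genotypes. With 1 value per genotype there is no spread between libraries, no SD and no test. A difference is therefore given on the log2(FPKM + 1) scale, which understates the ratio for genes of low level, and is counted when it reaches 2-fold (1 log2 unit) in either direction. The counts cover the 18912 rows in which 2 or more of the 5 genotypes reached 1 FPKM, and 39 of the 40 genes were among them. All differences from Col share the same Col value. Read depth is not known from these values.

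Glucosinolate synthesis runs in 3 stages. Methionine side chains are lengthened for the aliphatic branch, a core pathway then converts amino acids through aldoximes to the glucosinolate, and the side chain or indole ring is finally modified. Aliphatic compounds derive mainly from methionine and are switched on chiefly by MYB28 with MYB29 and MYB76, whereas indolic compounds derive from tryptophan under MYB34, MYB51 and MYB122. Glucosinolates become toxic when a myrosinase, a thioglucosidase stored in separate cells, removes the glucose. In leaves the abundant myrosinases TGG1 and TGG2 sit in guard cells and in myrosin cells along the veins, while PEN2 is an atypical myrosinase that acts on indole glucosinolates in living cells under attack.

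Each mutated gene had its lowest FPKM in the genotypes labelled for it, but HOS15 was below Col in all 4 mutants. HDA9 stood at 1.70 FPKM in hda9 and 1.76 in hda9-hos15, against 7.79 in Col. HOS15 stood at 2.16 FPKM in hos15 and 1.89 in hda9-hos15, against 16.2 in Col, and it was also low in hda9 at 4.37 and in pwr at 3.17. PWR stood at 2.18 FPKM in pwr and 8.38 in Col. The 5 columns summed to between 955700 FPKM in Col and 1326090 in pwr. Over the counted rows, differences from Col were also partly predictable from transcript sequence (base composition and length), which accounted for 35.1% of their variance in hda9 and 29.0% in hos15, 42.6% in pwr and 34.6% in hda9-hos15. The part of a difference left after this relation is removed is called sequence-adjusted below, and a sequence-adjusted difference can have another size or sign than the deposited one. Leaf marker genes summed to between 27896 and 33163 FPKM in the mutants and to 23342 in Col. RBCS1A, a Rubisco subunit, carried most of that sum, and RCA and LHCB2.2 went the other way, below Col in all 4 mutants. Seed storage and flower marker genes summed to no more than 0.417 FPKM in any genotype.

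Most of the glucosinolate pathway stood within 2-fold of its Col level in every mutant, as did most counted rows. Of the 39 genes counted, 35 lay within 2-fold of Col in each of the 4 mutants. The range over the 5 genotypes, a looser measure, reached 1 log2 unit in 10.3% of the 39 genes and 12.8% of all counted rows. The 4 that passed 2-fold in at least 1 mutant were the indolic regulator MYB51, the indole-modifying enzyme CYP81F2, the aliphatic regulator MYB76 and the myrosinase TGG2. In hda9, 2 genes were higher by 2-fold where 1.99% of all counted rows were, and 2 were lower where 4.49% of rows were. In hos15, 2 were higher against a background of 1.23% and 1 was lower against 2.48%. In pwr none was higher (background 1.94%) and 2 were lower (7.55%). In hda9-hos15 none was higher (1.49%) and 1 was lower (3.91%). Each count is at most 2 genes of 39, and the counts of lower genes lie near the background. The range of a gene over the 5 genotypes had a median of 0.40 on the log2 scale for the 39 genes and 0.46 for all counted rows.

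**Figure D1:**
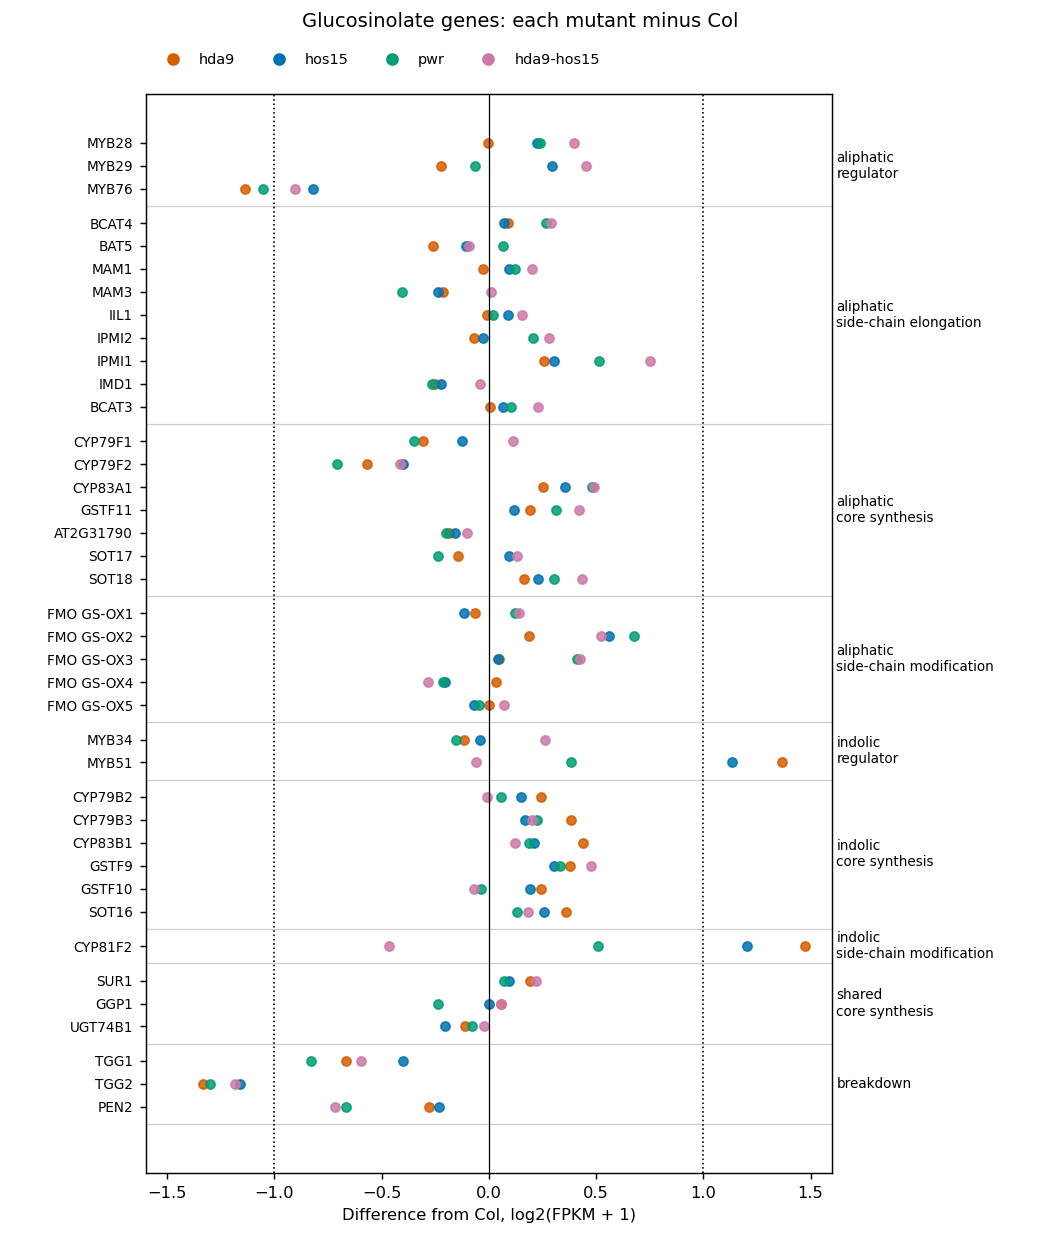
Difference of each mutant from Col on the log2(FPKM + 1) scale for the 39 counted genes, grouped by branch and role; each point is 1 genotype and the dotted lines mark 2-fold. MYB51 and CYP81F2 stand past 2-fold to the right in hda9 and hos15, MYB76 and TGG2 lie to the left of Col in all mutants, and the enzymes between them cluster around 0.

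The promoters of MYB51, CYP81F2, TGG2 and TGG1 are printed here because the largest differences fell on these genes or on their closest relative. Each run covers 250 bases before and 50 bases from the annotated gene start, 5′ to 3′ on the strand of the gene, from RefSeq assembly TAIR10.1. The FPKM table carries no coordinates, and the genes were matched to that annotation by locus code. In CYP81F2 capitals mark W-boxes (TTGACC or TTGACT, here on the opposite strand), the sites that WRKY factors bind, and an AC element (ACCTACC or ACCAACC or ACCTAAC), a type of site bound by R2R3-MYB factors. The window of MYB51 held neither of these nor a G-box (CACGTG), and it has no capitals. In TGG2 and TGG1 capitals mark the stretches of at least 12 bases that the 2 promoters share exactly.
MYB51, chr1:6389149-6389448, plus strand: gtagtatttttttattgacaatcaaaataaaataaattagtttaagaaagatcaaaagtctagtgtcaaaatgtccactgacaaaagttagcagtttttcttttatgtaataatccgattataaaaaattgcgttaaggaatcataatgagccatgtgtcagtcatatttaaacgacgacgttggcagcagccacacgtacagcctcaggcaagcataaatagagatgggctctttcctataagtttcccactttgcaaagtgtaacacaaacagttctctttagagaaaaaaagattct
CYP81F2, chr5:23187590-23187889, plus strand: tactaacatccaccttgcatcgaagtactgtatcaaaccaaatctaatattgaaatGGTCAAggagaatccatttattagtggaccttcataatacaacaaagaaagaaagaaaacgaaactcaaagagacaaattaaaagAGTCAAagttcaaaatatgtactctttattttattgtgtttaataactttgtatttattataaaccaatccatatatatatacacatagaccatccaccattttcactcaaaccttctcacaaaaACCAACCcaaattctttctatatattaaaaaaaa
TGG2, chr5:9072458-9072757, plus strand: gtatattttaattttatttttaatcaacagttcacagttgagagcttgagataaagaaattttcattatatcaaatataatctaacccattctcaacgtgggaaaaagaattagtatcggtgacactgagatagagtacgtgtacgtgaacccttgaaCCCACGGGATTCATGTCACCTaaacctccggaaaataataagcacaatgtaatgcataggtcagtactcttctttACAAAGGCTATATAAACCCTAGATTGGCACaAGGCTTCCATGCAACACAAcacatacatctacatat
TGG1, chr5:9082335-9082634, minus strand: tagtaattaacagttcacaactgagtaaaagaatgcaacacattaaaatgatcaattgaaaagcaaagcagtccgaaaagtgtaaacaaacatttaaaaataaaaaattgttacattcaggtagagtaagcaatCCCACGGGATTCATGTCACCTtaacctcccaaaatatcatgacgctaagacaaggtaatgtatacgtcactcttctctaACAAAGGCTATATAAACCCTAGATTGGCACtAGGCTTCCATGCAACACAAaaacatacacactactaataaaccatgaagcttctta

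In the CYP81F2 window the W-boxes begin 194 and 109 bases before the gene start and the AC element 16 bases after it. TGG1 and TGG2 lie close together on chromosome 5, and their windows share 3 runs of 21, 30 and 19 bases, 70 bases in all. Over the 40 genes, with both strands searched, 14 windows (35%) held an AC element against 7.29% of 27443 promoters genome-wide. By group these were 9 of 21 aliphatic enzymes, 3 of 7 indolic enzymes, 2 of 3 shared enzymes, 0 of 6 regulators and 0 of 3 breakdown genes. W-boxes were found in 11 of the 40 (27.5%) against 32.4% genome-wide, and G-boxes in 6 (15%) against 7.68%. A match is a run of letters only and was not tied to binding in these seedlings.

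Among the aliphatic regulators, MYB28, the main activator of the branch, was the most abundant. MYB28 (AT5G61420) stood at 45.7 FPKM in hda9 and 53.7 in hos15, 54.3 in pwr, 60.7 in hda9-hos15 and 45.9 in Col. MYB29 (AT5G07690), its close paralogue, stood at 9.56, 14.1, 10.8 and 15.8 FPKM in hda9, hos15, pwr and hda9-hos15, against 11.3 in Col. For both, hda9-hos15 had the highest value and hda9 the lowest, and the widest difference from Col was 0.45 on the log2 scale, for MYB29 in hda9-hos15. Sequence-adjusted, the differences were 0.07, 0.25, 0.38 and 0.53 for MYB28 and -0.01, 0.43, 0.28 and 0.74 for MYB29, in hda9, hos15, pwr and hda9-hos15. MYB76 (AT5G07700), an accessory activator, stood at 1.06 FPKM in hda9 and 1.57 in hos15, 1.19 in pwr and 1.42 in hda9-hos15, against 3.53 in Col. All 4 mutants were below Col, with differences of -1.14, -0.82, -1.05 and -0.90 in that order of genotypes, and hda9 and pwr passed 2-fold. At these levels the call depended on the scale: with a pseudocount of 5 in place of 1 the difference was -0.49 in hda9 and -0.46 in pwr, and with one of 0.1 it was -1.12 in hos15 and -1.25 in hda9-hos15. The pwr difference was -0.92 after adjustment for transcript sequence.

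The indolic regulators did not stand together. MYB34 (AT5G60890), which also activates tryptophan synthesis, stood at 23.1 FPKM in hda9 and 24.4 in hos15, 22.6 in pwr and 30.4 in hda9-hos15, against 25.2 in Col, the widest difference being 0.26 in hda9-hos15, or 0.53 when sequence-adjusted. MYB51 (AT1G18570), the main activator of indole glucosinolates in shoots, stood at 26.5 FPKM in hda9 and 22.5 in hos15, 12.9 in pwr and 9.24 in hda9-hos15, against 9.67 in Col. The hda9 and hos15 single mutants were high, pwr lay between, and the double mutant was at the Col level. The differences from Col were 1.37 in hda9 and 1.14 in hos15, 0.39 in pwr and -0.06 in hda9-hos15, and after adjustment for transcript sequence they were 1.42, 1.15, 0.51 and 0.06. With a pseudocount of 5 the hos15 difference was 0.90, short of 2-fold. MYB122 (AT1G74080), the minor member, was low, at 0.679 FPKM in hda9 and 0.447 in hos15, 0.0847 in pwr and 0.396 in hda9-hos15, against 0.441 in Col, and it was the gene left out of the counts.

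CYP81F2 (AT5G57220), the cytochrome P450 that hydroxylates the indole ring and whose product is used in the defence pathway of PEN2, had the same order of genotypes as MYB51. It stood at 27.4 FPKM in hda9 and 22.6 in hos15, 13.6 in pwr and 6.40 in hda9-hos15, against 9.22 in Col. The differences from Col were 1.47, 1.21, 0.51 and -0.47, and 1.47, 1.19, 0.57 and -0.41 after sequence adjustment. With a pseudocount of 5 the hos15 difference was 0.96. It was the only synthesis enzyme of the 31 past 2-fold in any mutant. The count of rows past 2-fold after sequence adjustment, in either direction, was 3.02% of adjusted rows in hda9 and 1.79% in hos15, 3.78% in pwr and 2.01% in hda9-hos15.

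The double mutant differed from its single-mutant parents at these 2 genes. Between hda9-hos15 and hda9, MYB51 differed by -1.43 and CYP81F2 by -1.94. No other of the 39 counted genes passed 2-fold, where 1.85% of all counted rows did. Beyond the 39, the methyltransferase genes IGMT1, at -1.22, and IGMT2, at -1.58, also passed it and are described below. Between hda9-hos15 and hos15, MYB51 differed by -1.20 and CYP81F2 by -1.67, and again no other of the 39 passed (background 1.29%). None of the 39 passed 2-fold in hda9-hos15 against pwr (background 1.2%), hda9 against hos15 (0.74%), hda9 against pwr (0.925%) or hos15 against pwr (1.2%). The nearest were CYP81F2 in hda9-hos15 against pwr, at -0.98, and MYB51 in hda9 against pwr, at 0.98.

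The hos15 mutation can be read in 2 backgrounds that share no column, as hos15 minus Col and as hda9-hos15 minus hda9. For MYB51 the values were 1.14 and -1.43, and for CYP81F2 1.21 and -1.94, so that the sign of the difference was opposite in the 2 backgrounds. Of the 39 genes these 2 (5.13%) were past 2-fold in opposite directions, as were 100 of the 18912 counted rows (0.529%). The indolic core enzymes CYP79B2, CYP79B3, CYP83B1, GSTF10 and SOT16 had the same pair of signs at small sizes, such as 0.21 and -0.32 for CYP83B1. GSTF9 was positive in both, at 0.30 and 0.10. HOS15 itself stood at 16.2 FPKM in Col and 2.16 in hos15, but at 4.37 in hda9 and 1.89 in hda9-hos15. The 2 comparisons therefore did not span the same fall in HOS15 RNA. With 1 value per genotype the difference between the backgrounds could not be tested.

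**Figure D2:**
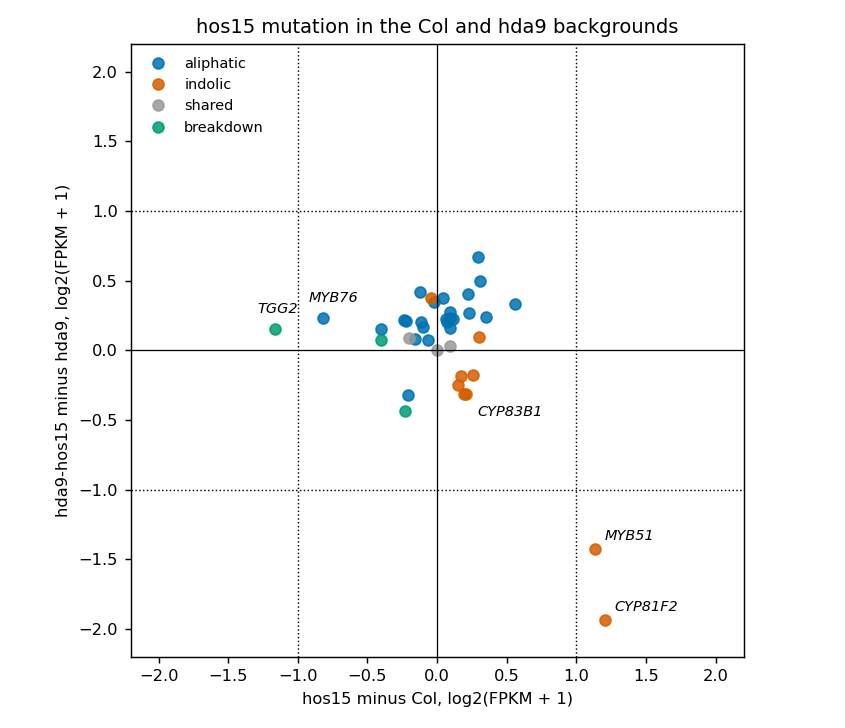
Effect of the hos15 mutation on the log2(FPKM + 1) scale in the Col background (horizontal axis, hos15 minus Col) and in the hda9 background (vertical axis, hda9-hos15 minus hda9), 1 point per counted gene, coloured by branch; dotted lines mark 2-fold. MYB51 and CYP81F2 lie alone at the lower right, at 1.14 and -1.43 and at 1.21 and -1.94.

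The core enzymes of the indolic branch were slightly above Col in hda9 and hos15, by less once sequence-adjusted, and in pwr their direction was mixed after that adjustment. CYP79B2 and CYP79B3 turn tryptophan into indole-3-acetaldoxime, CYP83B1 oxidises the aldoxime, GSTF9 and GSTF10 are glutathione transferases assigned to the conjugation step, and SOT16 adds the final sulphate. GSTF9 (AT2G30860) had the highest mean level of all 40 genes, at 1441 FPKM in hda9 and 1367 in hos15, 1393 in pwr and 1541 in hda9-hos15, against 1108 in Col. CYP83B1 (AT4G31500) stood at 174, 148, 146 and 139 FPKM in hda9, hos15, pwr and hda9-hos15, against 128 in Col. Both were lowest in Col, and their widest differences were 0.47 and 0.44 on the log2 scale. Sequence-adjusted, the 4 differences were 0.19, 0.16, 0.17 and 0.33 for GSTF9 and 0.31, 0.11, 0.08 and 0.03 for CYP83B1. CYP79B2 (AT4G39950) stood at 40.04 FPKM in hda9 and 37.5 in hos15, 35.0 in pwr, 33.5 in hda9-hos15 and 33.7 in Col. With CYP81F2 included, 7 of 7 indolic enzymes were above Col in hda9 and in hos15, 6 of 7 in pwr and 4 of 7 in hda9-hos15, at medians of 0.38, 0.21, 0.19 and 0.12. Sequence-adjusted, 7, 7, 4 and 4 of 7 were above Col, at medians of 0.19, 0.11, 0.08 and 0.03. For the 6 core enzymes alone the sequence-adjusted medians were 0.19, 0.11, 0.02 and 0.05, and in pwr CYP79B2 at -0.11, GSTF10 at -0.12 and SOT16 at -0.03 lay below Col. Over all counted rows the median differences were -0.04 in hda9 and -0.01 in hos15, -0.09 in pwr and -0.07 in hda9-hos15. In the same order 8753, 9107, 8152 and 8203 of the 18912 rows were above Col. Sequence-adjusted, 9122, 9040, 9353 and 9351 of 18079 rows were. The summed level of the 6 core indolic enzymes was 2293 FPKM in hda9 and 2162 in hos15, 2105 in pwr and 2236 in hda9-hos15, against 1802 in Col, and GSTF9 made up most of it.

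The aliphatic enzymes stood nearer to Col in hda9 and higher in the double mutant. The elongation cycle begins with BCAT4, which deaminates methionine, and with the plastid carrier BAT5. MAM1 and MAM3 then condense the keto acid with acetyl-CoA, IIL1 with IPMI1 or IPMI2 isomerises the product, IMD1 oxidises it, and BCAT3 returns it to an amino acid. IIL1 (AT4G13430), the most abundant of these 9, stood at 150 FPKM in hda9 and 160 in hos15, 153 in pwr and 168 in hda9-hos15, against 150 in Col. IPMI1 (AT3G58990), a small subunit of the isomerase, had the widest spread of the 9, with 61.7, 63.9, 73.8 and 87.4 FPKM in hda9, hos15, pwr and hda9-hos15, against 51.5 in Col. Its difference from Col reached 0.75 in hda9-hos15, but sequence-adjusted the 4 differences were -0.17, -0.01, -0.01 and 0.34. The medians of the 9 were -0.03, 0.07, 0.10 and 0.20 in hda9, hos15, pwr and hda9-hos15, and -0.02, -0.01, 0.07 and 0.28 when sequence-adjusted.

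The aliphatic core enzymes did not share a direction. CYP83A1 (AT4G13770), which oxidises aliphatic aldoximes, stood at 117 FPKM in hda9 and 125 in hos15, 137 in pwr and 138 in hda9-hos15, against 97.8 in Col. It was lowest in Col. CYP79F2 (AT1G16400), which forms aldoximes from long-chain methionine derivatives, stood at 10.4, 11.8, 9.35 and 11.7 FPKM in hda9, hos15, pwr and hda9-hos15, against 15.9 in Col. It was highest in Col, with differences of -0.57, -0.40, -0.71 and -0.41, or -0.36, -0.27, -0.38 and -0.18 when sequence-adjusted. Its neighbour CYP79F1 (AT1G16410), which accepts short and long chains, stood at 48.6 FPKM in hda9 and 55.2 in hos15, 47.3 in pwr and 65.5 in hda9-hos15, against 60.4 in Col. Its differences of -0.31, -0.13, -0.35 and 0.11 were -0.15, -0.06, -0.12 and 0.29 when sequence-adjusted. The pair share 2.00% and 2.74% of their 50-base stretches. SOT18 (AT1G74090) and GSTF11 (AT3G03190) were above Col in all 4 mutants, SOT17 (AT1G18590) in hos15 and hda9-hos15, and the UDP-glycosyltransferase AT2G31790 in none, the widest difference of these 4 genes being 0.43. Sequence-adjusted, SOT18 in hda9 turned to -0.05 and SOT17 was above Col in hos15 and hda9-hos15 as before.

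Of the 5 flavin monooxygenases that oxidise the sulphur of the side chain, none reached 2-fold. FMO GS-OX5 (AT1G12140), the most abundant, stood at 30.4 FPKM in hda9 and 29.0 in hos15, 29.4 in pwr and 32.0 in hda9-hos15, against 30.4 in Col. Its FPKM was level across genotypes, with sequence-adjusted differences of -0.20, -0.22, -0.29 and -0.11, but 19.5% of its 50-base stretches occur in other annotated genes and it overlaps other genes, so its value is uncertain. FMO GS-OX2 (AT1G62540) was low, at 1.71, 2.51, 2.80 and 2.42 FPKM in hda9, hos15, pwr and hda9-hos15, against 1.38 in Col. FMO GS-OX3 (AT1G62560) moved most of the 5 with the sequence adjustment, to 0.38, 0.26, 0.90 and 0.78 in hda9, hos15, pwr and hda9-hos15, against 0.05, 0.04, 0.41 and 0.43 as deposited. The shared enzymes SUR1 (AT2G20610), a C-S lyase, GGP1 (AT4G30530), a peptidase that trims the glutathione conjugate, and UGT74B1 (AT1G24100), which adds the glucose, had no wider difference from Col than the -0.24 of GGP1 in pwr. GGP1 had 147 FPKM in hda9 and 141 in hos15, 120 in pwr and 147 in hda9-hos15, against 141 in Col. Its sequence-adjusted differences were 0.40, 0.25, 0.32 and 0.42, so its direction in pwr turned and the limit just given no longer held. Of the 31 synthesis enzymes, 27 differed from Col by less than 0.5 in every mutant, as did 27 when sequence-adjusted. The share of all rows under 0.5 in every mutant was not computed, so these 2 counts have no direct background. The range over the 5 genotypes as deposited, another measure, had a median of 0.35 for these enzymes and 0.46 for all counted rows. It reached 1 log2 unit in 3.2% of these enzymes and 12.8% of all counted rows.

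The 2 branches differed in which genotype had the highest value. Of the 24 aliphatic genes, 17 (70.8%) were highest in hda9-hos15, as were 15.5% of all counted rows. Of the 9 counted indolic genes, 7 (77.8%) were highest in hda9, as were 15.0% of all counted rows. Between hda9-hos15 and hda9, 23 of 24 aliphatic genes were higher in hda9-hos15 with a median of 0.23, whereas 2 of 9 indolic genes were, with a median of -0.25. Over all counted rows, 9584 were higher and 9300 lower in that comparison. The FMO GS-OX4 gene (AT1G62570) was the aliphatic exception, at 11.8 FPKM in hda9-hos15 and 14.9 in hda9. Genes of 1 branch share regulators and libraries and are not independent replicates.

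The median over aliphatic enzymes minus that over indolic enzymes was -0.39 in hda9 and -0.17 in hos15, -0.08 in pwr and 0.03 in hda9-hos15. Sequence-adjusted it was -0.21, -0.12, -0.01 and 0.25, so the gap was smaller in hda9 and opened on the aliphatic side in hda9-hos15. Sequence-adjusted, 12 of 24 aliphatic genes were highest in hda9-hos15, as were 19.9% of adjusted rows, and 7 of 9 indolic genes in hda9, as were 14.5%. After median-ratio scaling 14 of 24 aliphatic genes were highest in hda9-hos15 and 7 of 9 indolic genes in hda9, and after quantile normalization 13 of 24 and 6 of 9 were. The count of aliphatic genes higher in hda9-hos15 than in hda9 was 23 of 24 under both and when sequence-adjusted. The sign of the aliphatic median against Col did not hold: in hda9 it was -0.02 as deposited, 0.03 after median-ratio scaling and -0.18 after quantile normalization, in hos15 0.05, 0.07 and -0.12, and in pwr 0.09, 0.19 and -0.04. In hda9-hos15 it was 0.18, 0.24 and 0.05. Quantile normalization moved the median of all counted rows in pwr to 0.05, against -0.09 as deposited. The median of the 7 indolic enzymes in hda9-hos15 turned to -0.04 under quantile normalization.

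**Figure D3:**
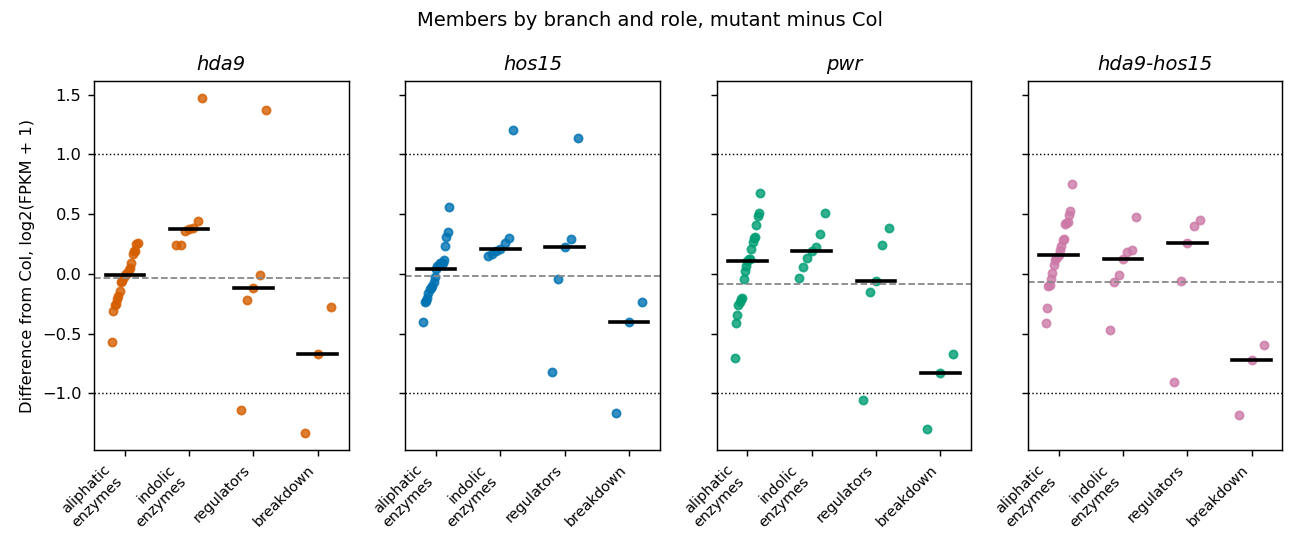
Difference of each mutant from Col on the log2(FPKM + 1) scale for aliphatic enzymes (21), indolic enzymes (7), regulators (5) and breakdown genes (3), 1 panel per mutant and 1 point per gene; black bars are medians, the grey dashed line is the median over all counted rows and dotted lines mark 2-fold. The indolic median is 0.38, 0.21, 0.19 and 0.12 from the left panel to the right, while the aliphatic median is -0.01, 0.04, 0.10 and 0.16.

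The median over the 5 counted regulators was -0.12 in hda9 and 0.22 in hos15, -0.06 in pwr and 0.26 in hda9-hos15, and that over the 31 synthesis enzymes was 0.05, 0.09, 0.10 and 0.14. Sequence-adjusted, the medians were 0.07, 0.25, 0.28 and 0.53 for regulators and 0.09, 0.06, 0.08 and 0.27 for synthesis enzymes, so the sign for regulators turned in hda9 and pwr. MYB51 and MYB76 lay at opposite ends of the regulators in hda9, at 1.37 and -1.14. The 6 core indolic enzymes differed from Col by 0.24 to 0.44 in hda9 (0.10 to 0.33 when sequence-adjusted), where MYB51 differed by 1.37. The aliphatic enzymes stood near Col where MYB76 was low, and MYB76 had a smaller FPKM than MYB28 or MYB29 in every genotype.

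The 3 breakdown genes had their highest FPKM in Col, and for TGG1 and TGG2 this held when sequence-adjusted. TGG2 (AT5G25980) stood at 91.1 FPKM in hda9 and 103 in hos15, 93.2 in pwr and 101 in hda9-hos15, against 231 in Col. The 4 mutants lay close together, at 39.4%, 44.5%, 40.3% and 43.8% of Col in the same order. On the log2 scale the differences were -1.33, -1.16, -1.30 and -1.18, and -1.32, -1.17, -1.23 and -1.14 after sequence adjustment. TGG1 (AT5G26000), the more abundant myrosinase, stood at 711 FPKM in hda9 and 855 in hos15, 635 in pwr and 747 in hda9-hos15, against 1129 in Col. Its differences, -0.67, -0.40, -0.83 and -0.60, did not reach 2-fold, though under quantile normalization the pwr difference was -1.20. The transcripts of the pair share 0.326% (TGG1) and 0.313% (TGG2) of their 50-base stretches, so few reads could be split between them.

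PEN2 (AT2G44490) stood at 100 FPKM in hda9 and 104 in hos15, 76.4 in pwr and 73.7 in hda9-hos15, against 122 in Col. Its order differed from that of the TGG genes, with pwr and hda9-hos15 the lowest at -0.67 and -0.72, against -0.28 in hda9 and -0.23 in hos15. Sequence-adjusted, the 4 differences were 0.08 in hda9 and 0.005 in hos15, -0.14 in pwr and -0.33 in hda9-hos15, so PEN2 was no longer highest in Col. Together the 3 genes summed to 902 FPKM in hda9 and 1061 in hos15, 804 in pwr and 922 in hda9-hos15, against 1483 in Col.

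Marker genes of guard cells, myrosin cells and the stomatal lineage were also lower in the mutants. The list was FAMA, the transcription factor that sets both guard cell and myrosin cell identity, KAT1, a guard cell potassium channel, and MUTE, a regulator of the stomatal lineage. FAMA stood at 3.57 FPKM in hda9 and 4.78 in hos15, 3.20 in pwr and 3.66 in hda9-hos15, against 8.51 in Col. KAT1 stood at 2.78, 3.69, 2.07 and 3.37 FPKM in hda9, hos15, pwr and hda9-hos15, against 8.50 in Col, and MUTE at 1.07, 1.64, 1.12 and 1.77, against 2.02. All 3 were below Col in every mutant and none was at 0. The low MUTE differed from Col by -0.54 in hda9 and -0.19 in hos15, -0.51 in pwr and -0.12 in hda9-hos15. Their sum was 7.42 FPKM in hda9 and 10.1 in hos15, 6.39 in pwr and 8.80 in hda9-hos15, against 19.0 in Col. Past 2-fold were 2 of the 3 in hda9 and 1 in hos15, 2 in pwr and 2 in hda9-hos15, where 4.49%, 2.48%, 7.55% and 3.91% of all counted rows were lower by 2-fold. Sequence-adjusted, the counts were 1, 0, 1 and 0, with FAMA at -0.60, -0.39, -0.55 and -0.55 and KAT1 at -1.07, -0.88, -1.27 and -0.83. Their part in the TGG result was not tested, and in whole seedlings fewer cells of a type and less RNA per cell cannot be told apart. The 4 root marker genes summed to between 940 and 1099 FPKM in the mutants and to 1453 in Col, nearly all of it from the beta-glucosidase PYK10. The root hair genes COBL9 and EXPA7 went the other way in FPKM, above Col in all 4 mutants, and RHD6 was below Col in all 4. Sequence-adjusted, COBL9 and EXPA7 were below Col in hos15, pwr and hda9-hos15. In hda9, hos15, pwr and hda9-hos15 the adjusted differences were 0.005, -0.16, -0.28 and -0.14 for COBL9. For EXPA7 they were 0.19, -0.17, -0.28 and -0.07, and for RHD6 0.01, -0.46, -0.10 and -0.22.

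**Figure D4:**
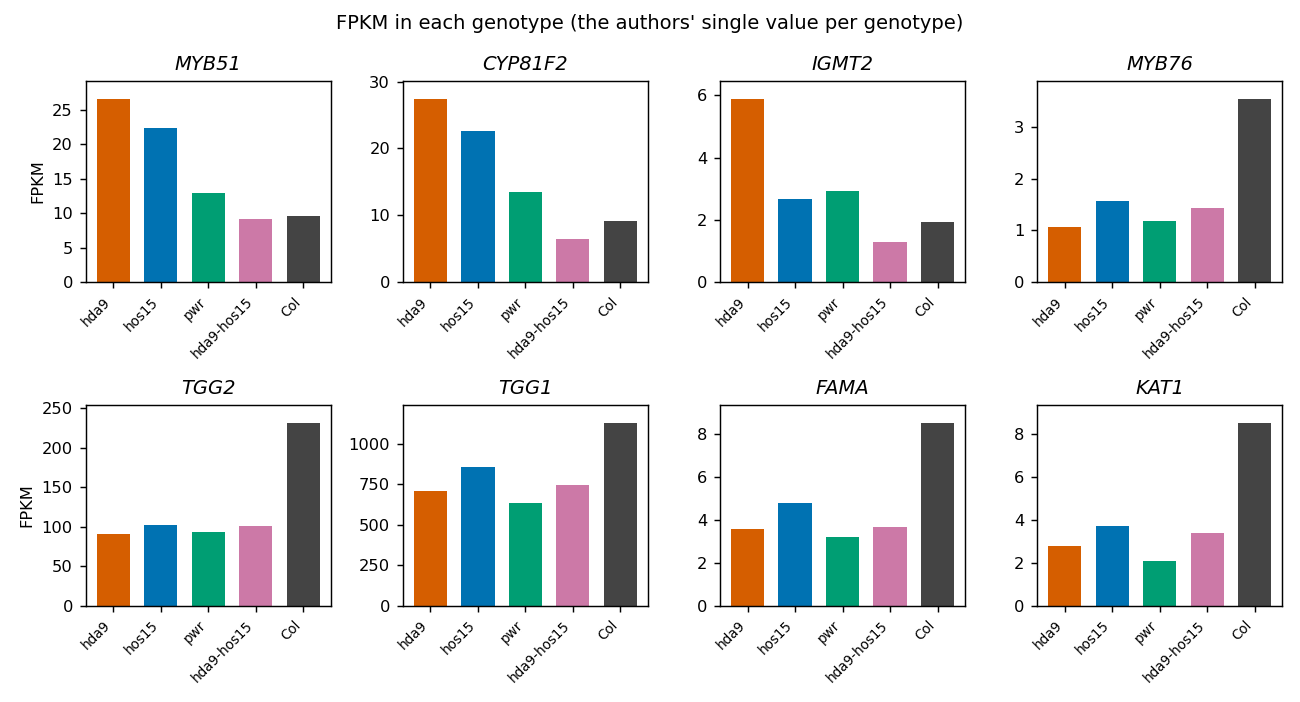
FPKM in each of the 5 genotypes for MYB51, CYP81F2, IGMT2, MYB76, TGG2, TGG1 and the guard and myrosin cell markers FAMA and KAT1; each bar is the authors' value for 1 genotype, so there are no error bars. MYB51 and CYP81F2 are tallest in hda9 and hos15 and near the Col bar or below it in hda9-hos15, whereas TGG2, TGG1, MYB76, FAMA and KAT1 are tallest in Col.

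Beyond the 40 genes, 7 lists of 56 further genes around the pathway were examined, of which 51 were counted and 4 passed 2-fold in at least 1 mutant. In hda9, 1 was higher and 0 lower, in hos15 none passed, in pwr 0 were higher and 2 lower, and in hda9-hos15 1 was higher and 2 lower, against the same backgrounds as before. Beside the count over all mutants, the range over the 5 genotypes, a looser measure, reached 1 log2 unit in 12.8% of all counted rows. IGMT2 (AT1G21120), a methyltransferase that acts on the product of CYP81F2, stood at 5.87 FPKM in hda9 and 2.67 in hos15, 2.94 in pwr and 1.29 in hda9-hos15, against 1.93 in Col. It was highest in hda9 and lowest in hda9-hos15, but 35.4% of its 50-base stretches occur in neighbouring relatives, so its value is uncertain. Its relative IGMT1 (AT1G21100) stood at 19.8, 15.1, 15.3 and 7.95 FPKM in hda9, hos15, pwr and hda9-hos15, against 13.1 in Col, within 2-fold of Col in every mutant. Between hda9-hos15 and hda9, however, IGMT1 differed by -1.22 and IGMT2 by -1.58, both past 2-fold. Of the 50-base stretches of IGMT1, 12.1% occur in other genes.

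ESM1 (AT3G14210), an epithiospecifier modifier that steers breakdown toward isothiocyanates, was above Col in each mutant, at 174 FPKM in hda9 and 157 in hos15, 181 in pwr and 236 in hda9-hos15, against 114 in Col. Its difference reached 1.04 in hda9-hos15. TGG5 (AT1G51470), a root myrosinase, stood at 5.89 FPKM in hda9 and 6.21 in hos15, 3.50 in pwr and 3.46 in hda9-hos15, against 10.4 in Col. It shares 30.9% of its 50-base stretches with TGG4, so reads of the pair may be split. AT1G04770, listed among upstream regulators, stood at 11.3, 15.3, 9.81 and 9.86 FPKM in hda9, hos15, pwr and hda9-hos15, against 23.2 in Col. After sequence adjustment its differences of -0.97, -0.57, -1.16 and -1.15 became -0.13, 0.12, -0.06 and -0.45. MYC2 (AT1G32640), a basic helix-loop-helix partner of the MYB factors, stood at 23.2 FPKM in hda9 and 22.2 in hos15, 18.5 in pwr and 21.2 in hda9-hos15, against 22.0 in Col. Its sequence-adjusted differences were 0.41, 0.21, 0.22 and 0.27 in that order. Those of MYC3 were 0.75, 0.59, 0.88 and 0.71, and those of MYC4 0.33, 0.42, 0.59 and 0.68. IQD1, on the same list, was below Col as deposited, at -0.84, -0.66, -0.89 and -0.56. The medians of the 7 listed upstream regulators were -0.20, -0.08, -0.47 and -0.13 as deposited.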

How the data were processed

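Poly(A) RNA of 10 libraries, 2 per genotype, was prepared with a stranded kit, per the labels' protocols. The submitters' processing notes name TopHat2, Cufflinks, Cuffdiff and the TAIR10 build; their versions are not given in the sources used. The deposited values are FPKM, 1 column per genotype, made by the authors; the sources do not state how the libraries were combined. The column headed WT was taken as Col. The planned limma fit needs a value per library and could not be made, so no test was run. Read depth is unknown, and no value has an error.

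Values were compared as log2(FPKM + 1) over rows that reached 1 FPKM in 2 or more columns, at a threshold of 2-fold. For the sequence adjustment, an additive cubic spline regression (5 knots per property) of each difference on transcript base composition (GC, purine, and the richest 100-nt purine window) and length was fitted to the 18079 protein-coding genes whose longest transcript has 300 nt or more, and residuals were used. The code was tested on simulated data (Python 3.11.15, pandas 2.3.3, numpy 2.4.6, scikit-learn 1.9.0, matplotlib 3.10.9). Alternatives were pseudocounts of 0.1 and 5, filters, thresholds of 1.5-fold and 3-fold, 2 scalings and the sequence adjustment. Reads shared between genes were judged from 50-base stretches of RefSeq TAIR10.1 transcripts.

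The genes and lists were chosen with earlier results of these data known. Full values were given for the regulators, genes past 2-fold, breakdown genes and the most abundant example of each role that did not pass; further genes are named as examples chosen after their values were seen.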

Additional observations from a re-analysis of the deposited data

Results flagged for a closer look

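At MYB51, the indolic regulator, the difference that accompanied the hos15 mutation was 1.14 in the Col background (hos15 minus Col) and -1.43 in the hda9 background (hda9-hos15 minus hda9) on the log2(FPKM + 1) scale, a difference of -2.56 between backgrounds. At CYP81F2, the indole hydroxylase, the 2 values were 1.21 and -1.94, a difference of -3.14. Both genes stand out because the hos15 mutation went with a higher level in 1 background and a lower level in the other. HOS15 RNA fell from 16.2 FPKM in Col to 2.16 in hos15, but from 4.37 in hda9 to 1.89 in hda9-hos15, so the 2 falls were unlike. There is 1 value per genotype, so neither difference between backgrounds was tested.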

How the results depend on the processing

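No paired analysis was possible because the table holds 1 value per genotype, and for the same reason no library could be left out in turn. Of 36 recounts of genes past 2-fold, 24 stayed within 1.5 times the reported count. With a 3-fold threshold the count was 0 in each of the 4 mutants. In hos15 it was 1 with a pseudocount of 5. In pwr it was 1 with a pseudocount of 5, with a mean FPKM of at least 5, with median-ratio scaling and with sequence adjustment, and 6 with a 1.5-fold threshold. In hda9-hos15 it was 2 with a pseudocount of 0.1 and 5 with a 1.5-fold threshold. Of 112 recomputed medians of branches and roles, 93 moved by less than a tolerance of 0.07 to 0.18, which is the SD over counted rows of the hda9 to hos15 log2 ratio (0.32) scaled to a median of that many genes; it treats genes as independent and is no replicate error. The other 19 came from 2 scalings and the sequence adjustment. With quantile normalization the medians were -0.18, -0.12, -0.036 and 0.053 for the aliphatic branch in hda9, hos15, pwr and hda9-hos15, 0.17 in hda9 and 0.031 in pwr for the indolic branch, 0.13 in pwr for regulators, and -0.055, -0.065, -0.051 and 0.050 for synthesis enzymes. With median-ratio scaling they were 0.19 for the aliphatic branch and 0.21 for synthesis enzymes in pwr. With sequence adjustment they were 0.29 for the aliphatic branch and 0.27 for synthesis enzymes in hda9-hos15, 0.19 for the indolic branch in hda9, and 0.066, 0.28 and 0.53 for regulators in hda9, pwr and hda9-hos15. The sign differed from that of the deposited values in 6 of 16 medians with quantile normalization, 2 with median-ratio scaling, 2 with sequence adjustment and 1 with a mean FPKM of at least 5. Of 332 recomputed differences of single genes, none reversed past 2-fold, 8 no longer passed 2-fold and 3 newly passed it, all for MYB76, MYB51, CYP81F2 or TGG1. The cause was not tested.

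Over all counted rows the rows higher and lower than Col in pwr numbered 366 and 1427 as deposited, 535 and 1212 with median-ratio scaling, and 521 and 1041 with quantile normalization. In hda9-hos15 they numbered 281 and 739, 335 and 624, and 345 and 527. Depth is unknown, and low genes such as MYB76 and MYB122 are limited most.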

Other observations

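The supply lines around the pathway stood near their Col levels. None of 8 tryptophan synthesis genes, 5 genes of sulphate activation, 3 genes of the camalexin branch or 3 glucosinolate transporter genes passed 2-fold in any mutant. Of all counted rows, 1.99% were higher and 4.49% lower by 2-fold in hda9, and 1.23% and 2.48% in hos15. In pwr the shares were 1.94% and 7.55%, and in hda9-hos15 1.49% and 3.91%. For so few genes a count of none lies near these shares. The median difference from Col of the tryptophan genes was 0.12 in hda9 and -0.01 in hos15, 0.01 in pwr and -0.03 in hda9-hos15. That of the genes listed under sulphate activation (APK1, APK2, APR1, APR2 and APR3) was -0.04, 0.04, 0.08 and 0.27 in the same order. That of the camalexin genes, which share the CYP79B2 and CYP79B3 aldoxime, was 0.20, 0.25, -0.07 and -0.25, and that of the transporters 0.11, 0.08, -0.08 and -0.14.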
